A study of Arabidopsis thaliana with 4 samples.

Results

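The ABA response of Arabidopsis thaliana seedlings that overexpress ZFP3 was described here, that is, ZFP3ox seedlings germinated on abscisic acid (ABA) against ZFP3ox seedlings germinated without it. ZFP3 encodes a zinc finger protein of the nucleus. The study comprised 4 RNA samples, of which 2 belong to this comparison. ZFP3ox ABA was ZFP3 overexpressing seedlings germinated with 5 µM estradiol and 2.5 µM ABA and collected at 84 h, and ZFP3ox control was the same genotype on 5 µM estradiol alone, collected at 36 h. Col-0 wild type was handled in the same way, as wild-type ABA (84 h) and wild-type control (36 h). All 4 samples therefore received estradiol, which per the labels' protocol was in every medium, and harvest time and ABA cannot be told apart in either genotype. Per the labels' protocol, the later harvest on ABA was meant to give seedlings at the same radicle stage. The labels name neither the promoter that drives ZFP3 nor the number of transgenic lines.

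ABA holds mature seeds dormant and slows germination. It binds receptors of the PYR/PYL family, which then inhibit clade A PP2C phosphatases. This frees SnRK2 kinases to activate bZIP transcription factors such as ABI5, and those factors bind ABA-responsive elements (ABREs) with an ACGTG core in promoters. Known outputs in seeds and germinating embryos are late embryogenesis abundant (LEA) proteins, which accompany desiccation tolerance, while genes of the green seedling stay low.

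Members were chosen by size. The deposited table gives 2 columns per sample, called column set 1 and column set 2. The values of set 1 are RPKM, read counts scaled to gene length in kilobases and to library size. Those of set 2 were found to be RPM (reads per 1000000 reads of the library), not divided by gene length, so levels are compared between genes only in set 1. A plain ratio of ABA to control within a set does not depend on length. The filter at 1 and the 1 added to each value do depend on it in set 2. A gene was kept if both columns of ZFP3ox ABA or both of ZFP3ox control were at 1 or more, which held for 22057 of 23932 features. A member had log2 ratios of value + 1 of at least 1 (2-fold) in both sets. With 1 sample in each group this rule has no replicate check and gives no p-value. Both columns of a sample count as 1 replicate, since nothing says that they came from separate plants.

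In ZFP3ox, 395 genes (1.79% of those kept) passed this rule: 230 (1.04%) were higher and 165 (0.748%) lower with ABA. Of the members, 57 higher and 5 lower genes had been kept through only 1 of the 2 samples, the one in which they were high. The median gene had log2 ratios of 0.21 in set 1 and 0.18 in set 2. With each set centred on its own median, the split turned round to 111 higher (0.503%) and 303 lower (1.37%), so ratios are best read against those medians. Set 1 alone held 1775 higher genes (8.05%) and 1235 lower ones (5.6%), and set 2 alone 1812 (8.22%) and 547 (2.48%). Across genes, which are not independent replicates, the ratios of the 2 sets correlated with Pearson's r of 0.278, and 31 genes passed 2-fold in opposite directions. A count test on the reads of set 2 alone, edgeR's quasi-likelihood test with ABA averaged over both genotypes and 1 residual degree of freedom, called 38 genes higher (0.172%) and 40 lower (0.181%) after Benjamini-Hochberg adjustment.

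**Figure D1:**
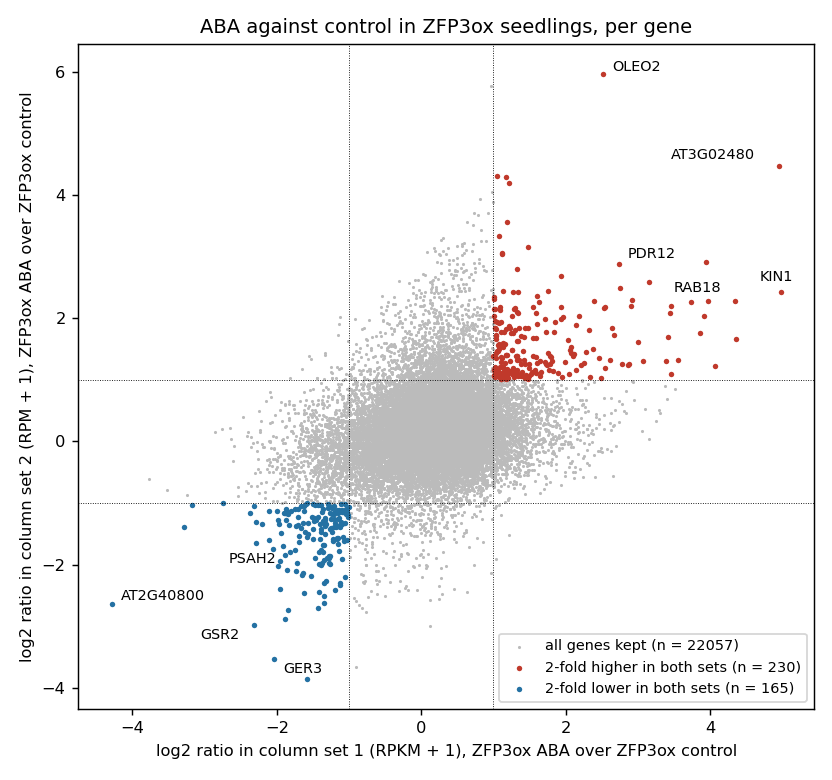
Each point is a gene, with its log2 ratio of ZFP3ox ABA over ZFP3ox control in column set 1 (x axis, RPKM + 1) and column set 2 (y axis, RPM + 1); dotted lines mark 2-fold. The 230 red genes and the 165 blue genes are past 2-fold in both sets, and 31 genes lie past 2-fold in opposite directions.

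Depth limits the ratios of weak genes. In set 2 every value checked was a whole multiple of 1 read, which gave a depth in genes of 2.64 M reads (M stands for 1000000) for ZFP3ox ABA and 2.53 M reads for ZFP3ox control. The low values of set 1 gave a rougher estimate of the reads it was scaled to. This was about 2.61 M reads for ZFP3ox ABA and 3.01 M reads for ZFP3ox control. Only 70.2% and 66.8% of the set 1 values checked lay near whole reads. Set 2 was scaled to 9.92 M and 9.5 M reads, so its depth in genes is not a like measure. The reads of set 2 allow an exact 95% counting interval for each RPM ratio (with no pseudocount), which covers counting error only. That interval lay wholly on the member's own side of 0 for all 230 higher and all 165 lower members, as the size rule nearly fixes, and wholly beyond 2-fold for 138 and 104 of them. The highest gene of set 2, AT3G43990, took 20.5% of all RPM in ZFP3ox ABA and 28.7% in ZFP3ox control.

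The label was checked first. RAB18 (AT5G66400, chr5:26518277-26519447 in TAIR10.1, minus strand) encodes a dehydrin, a class of LEA protein that ABA induces. It had 363 RPKM and 18.6 RPM in ZFP3ox ABA, against 16.9 RPKM and 3.05 RPM in ZFP3ox control. Its log2 ratios were 4.34 in set 1 and 2.27 in set 2, where the 95% counting interval ran from 2.03 to 3.22. KIN1 (AT5G15960, chr5:5209717-5210826, plus strand), a cold- and ABA-inducible gene, had 107 RPKM and 11.1 RPM in ZFP3ox ABA, against 2.42 RPKM and 1.26 RPM in ZFP3ox control, with log2 ratios of 4.98 and 2.42. In that annotation the start of RAB18 overlaps the start of AT5G66410 on the other strand. Both markers were thus high in the ABA sample and low in the control sample in both sets. Reads that match several places were used, so KIN1 cannot be separated fully from its close neighbour COR6.6. ZFP3 itself (AT5G25160, chr5:8687188-8688415, plus strand) had 85.4 RPKM and 44.8 RPM in ZFP3ox ABA, against 176 RPKM and 40.8 RPM in ZFP3ox control. Its ratios pointed opposite ways in the sets (-1.03 and 0.13). Wild type had 15.7 RPKM and 1.01 RPM of ZFP3 with ABA and 8.66 RPKM and 1.14 RPM without, so the driven gene stood above wild type in all ZFP3ox columns.

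The genes highest with ABA, ranked by the weaker of their 2 ratios, included LEA, oleosin and seed aquaporin genes. First came AT3G02480, which encodes a LEA family protein. It had 5157 RPKM and 250.0 RPM in ZFP3ox ABA, against 165 RPKM and 10.3 RPM in ZFP3ox control. In set 2 this was 2480 reads against 98, with a log2 ratio of 4.47 and a counting interval of 4.31 to 4.91, and the log2 ratio in set 1 was 4.96. M17, another LEA gene, had 114 RPKM and 10.5 RPM in ZFP3ox ABA, against 6.47 RPKM and 0.53 RPM in ZFP3ox control. LEA4-5 had 264 RPKM and 29.0 RPM in ZFP3ox ABA, against 28.8 RPKM and 4.0 RPM in ZFP3ox control. All 3 were detected without ABA in both sets, although M17 had only 5 reads there in set 2, below the filter at 1.

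Genes of the oil body and of transport were also among the 15 highest. OLEO2, which encodes an oleosin that coats seed oil bodies, had 296 RPKM and 310 RPM in ZFP3ox ABA, against 50.8 RPKM and 4.0 RPM in ZFP3ox control. Its ratio therefore depended on the set, at 2.52 in set 1 and 5.96 in set 2. The oleosin gene OLEO1 was more even, with 77.3 RPKM and 11.1 RPM in ZFP3ox ABA, against 10.6 RPKM and 1.16 RPM in ZFP3ox control. PDR12, also named ABCG40, encodes an ABC transporter that imports ABA at the plasma membrane. It had 206 RPKM and 72.4 RPM in ZFP3ox ABA, against 30.1 RPKM and 8.95 RPM in ZFP3ox control, so both sets gave close ratios (2.74 and 2.88). TIP3;1, a tonoplast aquaporin gene of seeds, had 85.6 RPKM and 25.6 RPM in ZFP3ox ABA, against 10.4 RPKM and 4.42 RPM in ZFP3ox control.

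The rest of the 15 highest genes, beside RAB18 and KIN1, were AT3G03341 (a cold-regulated protein in RefSeq), LEA18, AT1G04560 (an AWPM-19-like membrane protein), AT3G24130 (a pectin lyase-like protein), AT4G17180 (a glycosyl hydrolase) and PER1, a peroxiredoxin gene of seeds. Their log2 ratios lay between 2.39 and 3.97 in set 1 and between 2.18 and 2.28 in set 2. AT3G24130 had 112 RPKM and 10.4 RPM in ZFP3ox ABA, against 9.32 RPKM and 1.47 RPM in ZFP3ox control. AT4G17180 had 194 RPKM and 11.4 RPM in ZFP3ox ABA, against 25.1 RPKM and 1.69 RPM in ZFP3ox control. Across all members, 19 higher genes and 3 lower ones were past 4-fold in both sets.

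**Figure D2:**
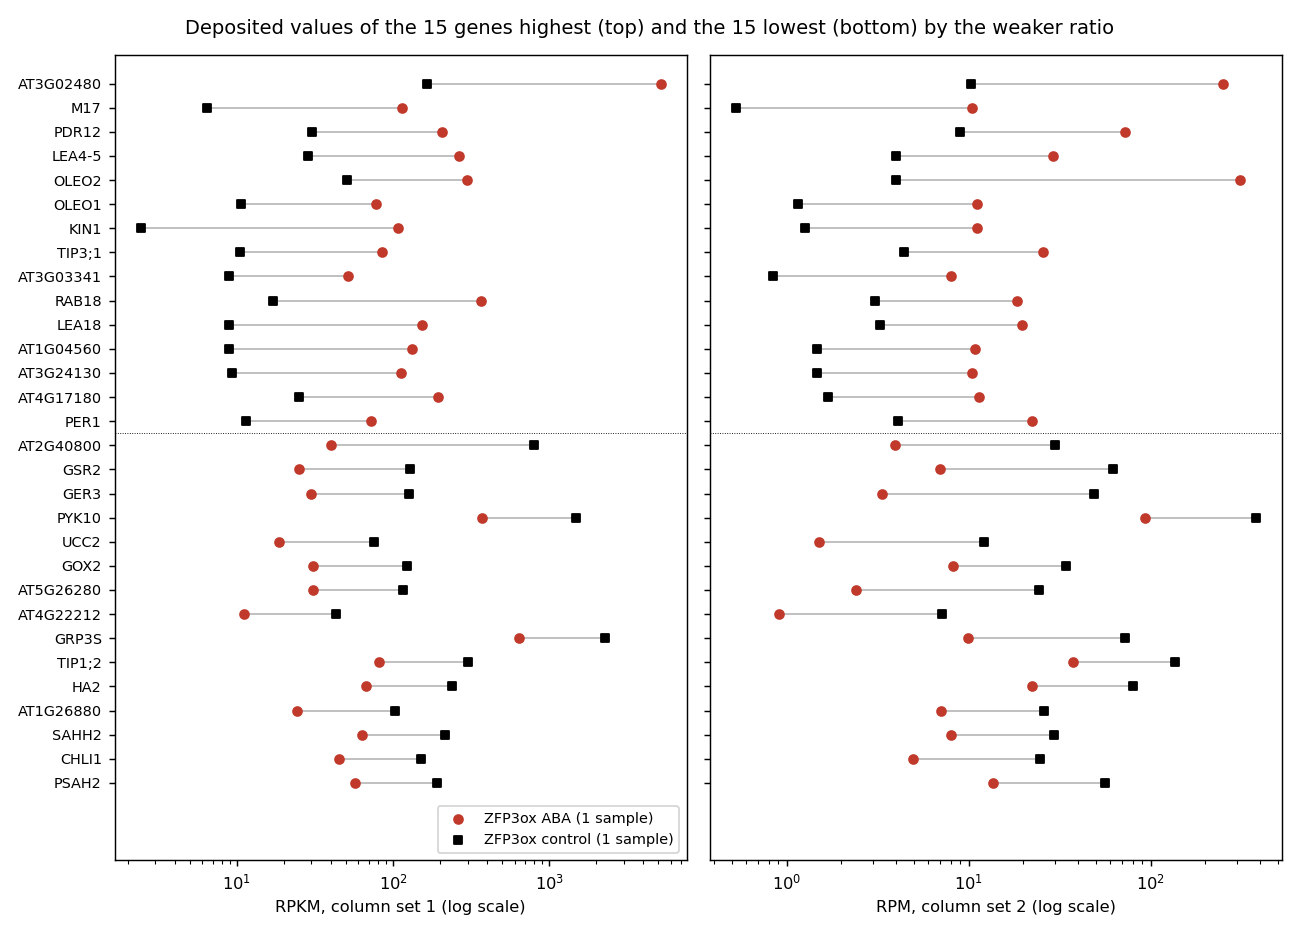
Deposited values of the 15 genes highest and the 15 lowest with ABA, with column set 1 (RPKM) on the left and column set 2 (RPM) on the right, both on log axes; circles are ZFP3ox ABA and squares ZFP3ox control, 1 sample each. The circles lie right of the squares for every gene above the dotted line and left of them for every gene below it; KIN1 had 107 RPKM with ABA and 2.42 RPKM without.

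The genes lowest with ABA included genes for metabolic enzymes, transporters and wall proteins. AT2G40800, an import inner membrane translocase subunit in RefSeq, had 39.8 RPKM and 3.93 RPM in ZFP3ox ABA, against 795 RPKM and 29.7 RPM in ZFP3ox control. GSR2, a cytosolic glutamine synthetase gene, had 25.1 RPKM and 6.96 RPM in ZFP3ox ABA, against 129 RPKM and 61.9 RPM in ZFP3ox control. GER3, which encodes a germin-like protein of the cell wall, had 29.8 RPKM and 3.33 RPM in ZFP3ox ABA, against 126 RPKM and 49.1 RPM in ZFP3ox control. These were the only members past 4-fold lower in both sets, and set 2 held 39, 69 and 33 reads of them with ABA, against 282, 588 and 466 without.

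PYK10, the beta-glucosidase stored in endoplasmic reticulum bodies of seedlings, was abundant in both samples. It had 371 RPKM and 93.6 RPM in ZFP3ox ABA, against 1477 RPKM and 382 RPM in ZFP3ox control, and its log2 ratios were -1.99 and -2.02. HA2, a plasma membrane proton pump that acidifies the wall, had 66.9 RPKM and 22.4 RPM in ZFP3ox ABA, against 239 RPKM and 80.3 RPM in ZFP3ox control. Its log2 ratios were -1.82 and -1.80, so for both genes the sets gave close values. GRP3S, a glycine-rich wall protein gene, had 638 RPKM and 9.98 RPM in ZFP3ox ABA, against 2288 RPKM and 72.5 RPM in ZFP3ox control. The others of the 15 lowest were UCC2 (a uclacyanin), GOX2 (a glycolate oxidase of photorespiration), AT5G26280 (a TRAF-like protein), AT4G22212 (a defensin-like protein), TIP1;2, AT1G26880 (a ribosomal protein), SAHH2 (S-adenosylhomocysteine hydrolase), CHLI1 and PSAH2. Their log2 ratios ran from -2.05 to -1.72 in set 1 and from -2.89 to -1.74 in set 2.

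Lower members were abundant genes. Their median level was 36.3 RPKM in ZFP3ox ABA and 104 RPKM in ZFP3ox control, where all genes kept had 16.1 and 13.8 RPKM. Higher members had medians of 28.2 RPKM in ZFP3ox ABA and 9.17 RPKM in ZFP3ox control. Values below about 5 to 7 RPKM are scarce in set 1, since the lowest 5% of its features end at 7.31 RPKM in ZFP3ox ABA and 5.04 RPKM in ZFP3ox control. A weakly expressed gene could therefore hardly pass the rule as lower. By the weaker of the 2 log2 ratios, AT1G66500 (1.0), AT4G29890 (1.0021) and AT2G25735 (1.0025) stood just inside the rule among the higher genes, and FZR3 (0.9997), CRK23 (0.9988) and EMB3114 (0.9988) just outside. Among the lower genes MLP423 (-1.0), PRPS20 (-1.0014) and AXS1 (-1.0045) stood just inside, and AT1G58983 (-0.9983), BGAL3 (-0.998) and AT5G65220 (-0.9966) just outside.

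Genes of ABA perception and signalling are read beside the 1.04% of all genes that were higher and the 0.748% that were lower. None of the 12 measured receptor genes passed the rule, and their medians were -0.14 and -0.11 (set 1 and set 2 here and below). Of 8 clade A PP2C genes, the phosphatases that hold the pathway off, 2 were higher and 0 lower, with medians of 0.80 and 0.79. ABI2 had 26.2 RPKM and 13.9 RPM in ZFP3ox ABA, against 11.4 RPKM and 3.37 RPM in ZFP3ox control. HAI1 had 39.97 RPKM and 7.86 RPM in ZFP3ox ABA, against 13.7 RPKM and 3.37 RPM in ZFP3ox control. With the sets centred, 0 of the 8 passed. In wild type 1 of the 8 passed, with medians of 0.75 and 0.18.

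Of 9 SnRK2 and transcription factor genes 1 was higher, ABI5, the bZIP factor that arrests growth after germination. It had 26.2 RPKM and 26.3 RPM in ZFP3ox ABA, against 9.09 RPKM and 6.63 RPM in ZFP3ox control, with 261 reads against 63 in set 2. ABF4 and AREB3, close relatives of ABI5, were past 2-fold in set 2 but not in set 1 (0.40 and 2.26 for ABF4, 0.37 and 1.72 for AREB3). Of 13 genes of ABA synthesis and breakdown 0 passed, with medians of 0.60 and 0.15, the second of which turned negative (-0.04) once centred. NCED3, whose product makes the committed step of ABA synthesis, had ratios of 0.56 and 2.22.

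LEA and dehydrin genes held the most members of any list higher with ABA. Of 28 measured, 13 were higher and 0 lower (11 and 0 when centred), beside the 1.04% and 0.748% of all genes. The list medians were 2.08 and 0.92, against 0.21 and 0.18 for all genes. AT3G02480, the LEA gene highest with ABA, is not on this list and enters neither its counts nor its sums. On the list, AT3G17520 had 232 RPKM and 13.8 RPM in ZFP3ox ABA, against 14.46 RPKM and 2.63 RPM in ZFP3ox control. AT3G15670 had 409 RPKM and 12.5 RPM in ZFP3ox ABA, against 18.9 RPKM and 3.26 RPM in ZFP3ox control. EM1 and GEA6, the Em proteins of the dry seed, had ratios of 2.86 and 1.23 (EM1) and 3.87 and 1.75 (GEA6). In wild type 18 of the 28 were higher and 1 lower, with medians of 3.11 and 1.66, and 12 genes passed in both genotypes. Summed over the list, set 1 held 2797 RPKM in ZFP3ox ABA and 1240 RPKM in ZFP3ox control, while wild type held 7353 RPKM with ABA and 1238 RPKM without.

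Of 16 other ABA and stress markers 5 were higher and 0 lower: KIN1, PER1, TSPO, RD29B and LTP3. RD29B, whose promoter is a standard ABA reporter, had 120 RPKM and 10.4 RPM in ZFP3ox ABA, against 10.3 RPKM and 2.53 RPM in ZFP3ox control. TSPO, an ABA-induced membrane protein gene, had 46.9 RPKM and 9.58 RPM in ZFP3ox ABA, against 9.56 RPKM and 1.58 RPM in ZFP3ox control. LTP3, a lipid transfer protein gene, had ratios of 1.60 and 1.91 in ZFP3ox and 0.32 and -1.19 in wild type. P5CS1, for proline synthesis, missed the rule at 0.9988 and 1.05 in set 1 and set 2, since the first lay just under the limit.

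Seed reserve genes followed the LEA genes in part. Of 10 storage protein genes 2 were higher and 0 lower, with medians of 1.08 and 0.71. CRA1, a cruciferin gene, had 125 RPKM and 39.7 RPM in ZFP3ox ABA, against 20.6 RPKM and 8.11 RPM in ZFP3ox control. AT2G28490, a cupin gene, had 141 RPKM and 11.9 RPM in ZFP3ox ABA, against 12.5 RPKM and 4.21 RPM in ZFP3ox control. Of 10 oil body genes 3 were higher (OLEO1, OLEO2 and OLEO5) and 0 lower, with medians of 0.99 and 0.35. Wild type had 6 of 10 storage and 5 of 10 oil body genes higher. Genes that turn stored oil into sugar did not agree between the sets: 0 of 13 passed and the medians were -0.80 and 0.83. ICL, isocitrate lyase, had 1112 RPKM and 350 RPM in ZFP3ox ABA, against 2447 RPKM and 196 RPM in ZFP3ox control, so the 2 sets ordered the samples in opposite ways.

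**Figure D3:**
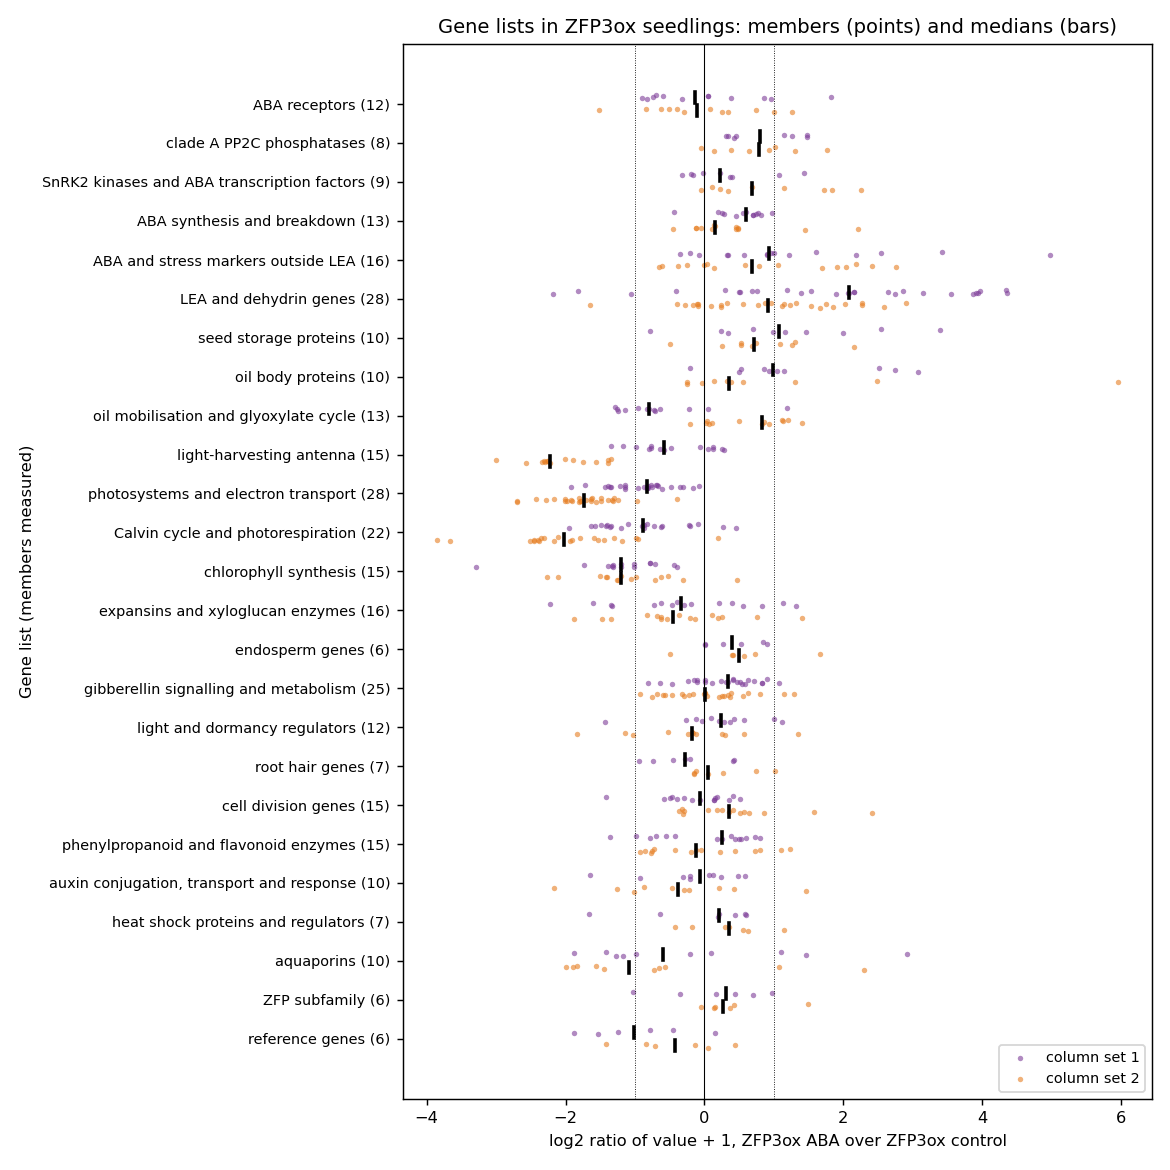
Log2 ratios of ZFP3ox ABA over ZFP3ox control for the measured members of 25 gene lists (number measured in brackets), in column set 1 (purple) and column set 2 (orange); black bars are list medians and dotted lines mark 2-fold. LEA genes lie right of 0 by the median in both sets (2.08 and 0.92), the 4 photosynthesis and chlorophyll lists lie left of it, and the oil mobilisation list lies on opposite sides in the sets (-0.80 and 0.83).

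Of the genes on 4 lists of photosynthesis and chlorophyll synthesis that passed the rule, all were lower with ABA, and the medians of 3 of these lists were further below 0 in set 2 than in set 1. In a bulk sample, fewer green cells and less RNA per cell cannot be told apart. Of 28 genes of the photosystems and electron transport 10 were lower and 0 higher, with all 28 below 0 in both sets and medians of -0.83 and -1.74. PSAH2, a photosystem I subunit, had 57.1 RPKM and 13.6 RPM in ZFP3ox ABA, against 190 RPKM and 56.5 RPM in ZFP3ox control. PSBQA, of the oxygen-evolving complex, had 45.7 RPKM and 14.8 RPM in ZFP3ox ABA, against 176 RPKM and 50.3 RPM in ZFP3ox control. DRT112, a plastocyanin, had 98.2 RPKM and 15.8 RPM in ZFP3ox ABA, against 265 RPKM and 109 RPM in ZFP3ox control. Once centred, 17 of the 28 passed as lower. In wild type 23 of the 28 did so uncentred, with medians of -2.16 and -3.31.

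Of 22 genes of the Calvin cycle and photorespiration 8 were lower and 0 higher (14 and 0 when centred), with medians of -0.89 and -2.03. GOX2 had 30.8 RPKM and 8.17 RPM in ZFP3ox ABA, against 122 RPKM and 34.2 RPM in ZFP3ox control, although its reads may be shared with the near copy GOX1. FBA2, a plastid aldolase, had 72.0 RPKM and 22.1 RPM in ZFP3ox ABA, against 225 RPKM and 126 RPM in ZFP3ox control. RBCS3B, a Rubisco small subunit gene, differed by set, with ratios of -1.58 and -3.85, and its reads may be shared with near copies. RCA, Rubisco activase, did likewise (-0.90 and -3.66) and did not pass.

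Of 15 light-harvesting antenna genes 2 were lower, CAB1 and LHCB6 (4 when centred), and the medians of -0.59 and -2.22 differed between the sets. All 15 were past 2-fold in set 2. CAB1 had 837 RPKM and 284 RPM in ZFP3ox ABA, against 1894 RPKM and 743 RPM in ZFP3ox control. The list sum was 3315 RPKM in ZFP3ox ABA and 5286 RPKM in ZFP3ox control, while wild type held 328 RPKM with ABA and 3788 RPKM without. In wild type all 15 were past the rule as lower, with medians of -2.95 and -5.07. With 1 sample per group this gap between the genotypes was not tested against replicates.

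By list medians chlorophyll synthesis agreed best between the sets, at -1.20 and -1.20. Its members agreed less well. Of 15 genes 10 were lower in set 1 and 9 in set 2, with 6 lower and 0 higher in both. PORB, the light-dependent reductase of protochlorophyllide, had 64.9 RPKM and 19.6 RPM in ZFP3ox ABA, against 645 RPKM and 53.2 RPM in ZFP3ox control. CHLI1, a magnesium chelatase subunit, had 45.1 RPKM and 4.94 RPM in ZFP3ox ABA, against 152 RPKM and 24.5 RPM in ZFP3ox control. HEMA1, GSA2, GGR and CRD1 were the other 4. In wild type the medians were -1.19 and -1.70, with 7 genes lower.

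By the authors' deposited annotation, 74 of 165 lower members (44.8%) were placed in the chloroplast, against 2 of 230 higher members (0.87%) and 6.91% of all genes kept. These shares are descriptions, the terms and genes of this paragraph were chosen after their values were seen, and the lower members' high starting level of 104 RPKM stands beside them. Under the term structural constituent of ribosome 15 of 327 genes were lower and 0 higher, with medians of -1.11 and -0.13. Several of the 15, among them RPL9, RPL21C and RPL27, were also annotated to the chloroplast envelope. The ribosome count is therefore not separate from the chloroplast annotation. In wild type 6 of the 327 were lower and 4 higher, with medians of -0.61 and 0.52. Under protein folding 7 of 177 were lower, among them the plastid chaperonin genes CPN60A and CPN60B and the endoplasmic reticulum chaperone genes BIP1 and SHD, and 2 were higher. BIP1 had ratios of -1.87 and -1.27 in ZFP3ox and -1.21 and -0.76 in wild type. The wild-type ratios were -0.96 and -0.44 for SHD, -0.62 and 0.34 for CPN60A, and -0.98 and 0.15 for CPN60B. Over the whole term wild type had 4 genes higher and 0 lower. Under response to abscisic acid stimulus 16 of 270 genes were higher and 3 lower, with medians of 0.11 and 0.16. These medians lay below those of all genes (0.21 and 0.18). In wild type 12 of the 270 were higher and 9 lower.

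Genes of cell growth and water transport follow. Of 16 expansin and xyloglucan enzyme genes 2 were lower, XTH9 (-1.61 and -1.48) and XTH4 (-1.33 and -1.34), beside 0.748% of all genes, with medians of -0.34 and -0.46. Aquaporins split by type. TIP3;1 and TIP3;2, of the seed vacuole, were higher, while TIP1;2, TIP1;1 and PIP2A, of growing tissue, were lower, 2 and 3 of 10 (1 and 4 when centred). TIP1;2 had 80.8 RPKM and 37.5 RPM in ZFP3ox ABA, against 301 RPKM and 137 RPM in ZFP3ox control. The same 5 aquaporins were past the rule the same way in wild type.

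Other hormone and light lists held 3 members in all, with 1.79% of all genes past the rule in either direction. None of 25 gibberellin genes passed, with medians of 0.34 and 0.01. RGL2, the DELLA repressor of germination, had ratios of 0.90 and 0.80 in ZFP3ox, against 2.57 and 2.32 in wild type. Of 10 auxin genes 1 was lower, GH3.3, an auxin-conjugating enzyme (-1.65 and -2.16), and the list medians were -0.07 and -0.38. Of 12 light and dormancy regulators 1 was higher, SOM, a repressor of light-dependent germination, with 26.5 RPKM and 6.65 RPM in ZFP3ox ABA, against 11.6 RPKM and 2.0 RPM in ZFP3ox control. It did not pass when centred. PHYA, the far-red light receptor, was lower, with 40.9 RPKM and 15.7 RPM in ZFP3ox ABA, against 112 RPKM and 33.1 RPM in ZFP3ox control. No gene passed among 15 phenylpropanoid and flavonoid genes (0.26 and -0.12), 7 heat shock genes (0.21 and 0.35) or 6 ZFP subfamily genes (0.31 and 0.26). The ZFP subfamily list takes in ZFP3, the driven gene.

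Markers of other tissues were read beside these results. None of 6 endosperm genes passed (medians 0.40 and 0.49), and their sum was 73.2 RPKM and 23.1 RPM in ZFP3ox ABA, against 52.7 RPKM and 13.4 RPM in ZFP3ox control. None of 7 root hair genes passed (-0.29 and 0.06), with sums of 86.5 RPKM and 25.3 RPM in ZFP3ox ABA, against 108 RPKM and 21.6 RPM in ZFP3ox control. The same held for 15 cell division genes (-0.07 and 0.35), with 267 RPKM and 128 RPM in ZFP3ox ABA, against 305 RPKM and 81.1 RPM in ZFP3ox control. No marker was listed at 0 in any column. Of 6 reference genes 1 was lower, ACT2 (-1.25 and -1.41), and the list medians were -1.02 and -0.43. In set 1 the antenna, photosystem and Calvin cycle lists lay nearer 0 than the reference genes (-0.59, -0.83 and -0.89). Chlorophyll synthesis lay further below 0 in that set (-1.20). In set 2 all of these lists lay further below 0 than the reference genes (-2.22, -1.74, -2.03 and -1.20). The part of these tissues in the results was not tested.

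The wild-type comparison shares no sample with that of ZFP3ox. Over the same genes, wild type had 318 higher (1.44%) and 310 lower (1.41%). Of the 230 genes higher in ZFP3ox, 52 were also past the rule in wild type, which is 22.6% of the ZFP3ox list and 16.4% of the wild-type list. Of the 165 lower genes 86 were, or 52.1% and 27.7%. No member passed the rule in the opposite direction in wild type. Ratios had the member's sign in both wild-type sets for 140 higher members (60.9%, where 34.4% of all genes were above 0 in both) and 141 lower members (85.5%, where 18.5% were below 0 in both).

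Members with little difference in wild type were fewer than among all genes. Both wild-type ratios lay within 0.5 of 0 (log2) for 43 higher members (18.7%) and 6 lower members (3.64%), where 32.4% of all genes kept lay within that bound, which was set after the values were seen. AT1G35330 led them, with 18.5 RPKM and 11.3 RPM in ZFP3ox ABA, against 4.40 RPKM and 2.21 RPM in ZFP3ox control, while wild type had 6.04 RPKM and 1.38 RPM with ABA and 6.45 RPKM and 1.35 RPM without. Among the lower genes CYP86A1, a fatty acid hydroxylase of suberin synthesis, had 10.02 RPKM and 2.52 RPM in ZFP3ox ABA, against 31.6 RPKM and 8.95 RPM in ZFP3ox control. Its wild-type values were 5.98 RPKM and 2.39 RPM with ABA and 3.98 RPKM and 3.13 RPM without. In set 2 AT1G35330 rested on 112 reads with ABA and 21 without in ZFP3ox, and CYP86A1 on 25 and 85.

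**Figure D4:**
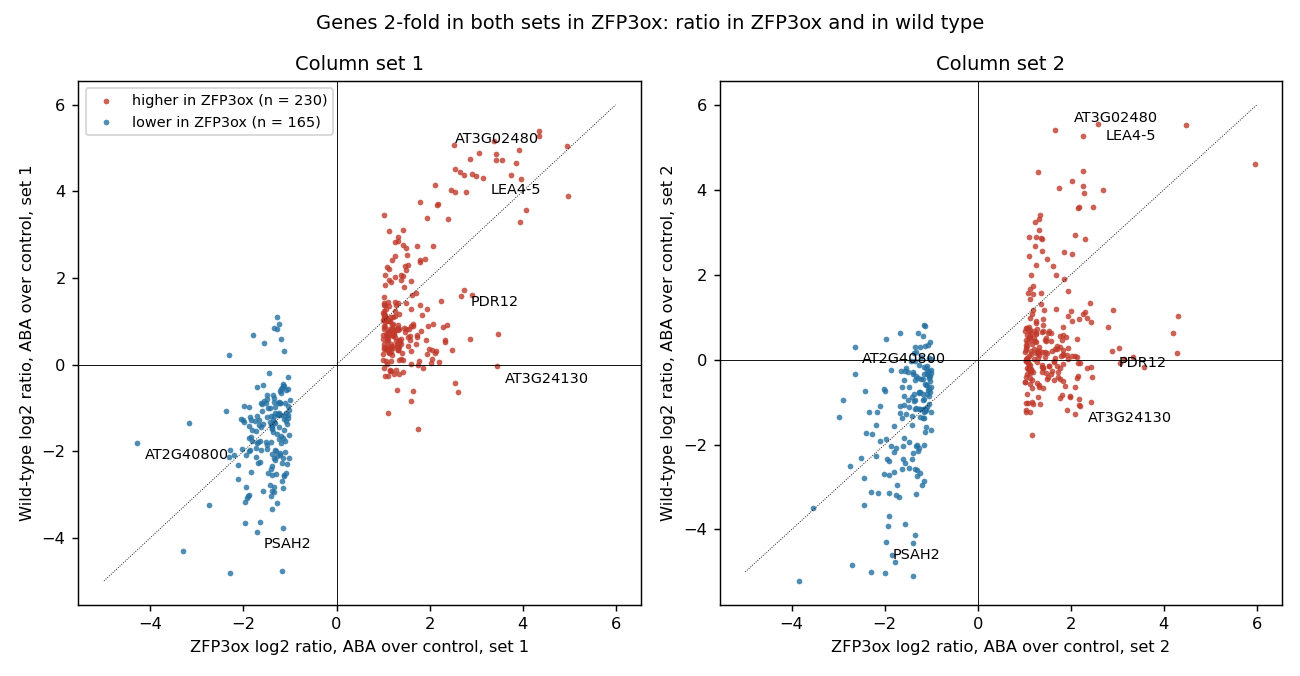
Log2 ratios of ABA over control for the 395 genes past the rule in ZFP3ox, with ZFP3ox on the x axis and wild type on the y axis, for column set 1 (left) and column set 2 (right); the dotted line marks equal ratios. The LEA gene LEA4-5 lies above the line (wild type 4.32 and 5.55, ZFP3ox 3.15 and 2.59), PSAH2 lies below it, and AT3G24130 lies under 0 in wild type in both panels.

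Promoters of 7 genes are shown as examples with and without an ABRE core, chosen after their matches were known. Each is the stretch of 250 bases before the annotated gene start in the TAIR10.1 assembly, read from the RefSeq genome on the gene's strand. Capitals mark the ABRE core ACGTG on either strand (CACGT on the strand shown), and a G-box CACGTG holds 2 overlapping cores. AT3G02480 (chr3:511970-512219, plus strand), M17 (chr2:17206202-17206451, plus strand), LEA4-5 (chr5:2090431-2090680, minus strand) and OLEO1 (chr4:12900180-12900429, plus strand) were higher in both genotypes. PDR12 (chr1:5338327-5338576, minus strand) and AT3G24130 (chr3:8713425-8713674, minus strand) were past the rule in ZFP3ox and not in wild type. GER3 (chr5:6976037-6976286, minus strand) was lower in both genotypes.
AT3G02480: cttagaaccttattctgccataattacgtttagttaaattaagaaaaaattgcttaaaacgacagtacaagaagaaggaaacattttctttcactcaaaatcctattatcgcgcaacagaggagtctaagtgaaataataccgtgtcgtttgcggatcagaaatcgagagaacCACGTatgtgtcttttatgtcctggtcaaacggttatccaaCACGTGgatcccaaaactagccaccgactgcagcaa
M17: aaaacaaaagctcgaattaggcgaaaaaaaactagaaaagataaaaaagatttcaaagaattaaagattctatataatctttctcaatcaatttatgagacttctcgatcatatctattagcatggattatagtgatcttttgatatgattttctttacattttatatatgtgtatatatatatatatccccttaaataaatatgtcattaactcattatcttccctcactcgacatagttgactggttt
LEA4-5: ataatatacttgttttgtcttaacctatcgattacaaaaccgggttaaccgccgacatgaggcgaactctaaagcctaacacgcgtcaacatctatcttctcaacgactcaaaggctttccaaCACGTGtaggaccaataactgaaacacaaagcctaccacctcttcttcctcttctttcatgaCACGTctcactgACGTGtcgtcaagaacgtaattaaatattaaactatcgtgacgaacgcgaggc
OLEO1: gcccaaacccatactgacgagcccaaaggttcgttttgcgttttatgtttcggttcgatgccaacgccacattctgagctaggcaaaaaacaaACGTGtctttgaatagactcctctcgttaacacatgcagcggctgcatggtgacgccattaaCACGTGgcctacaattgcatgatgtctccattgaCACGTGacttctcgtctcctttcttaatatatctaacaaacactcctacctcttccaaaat
PDR12: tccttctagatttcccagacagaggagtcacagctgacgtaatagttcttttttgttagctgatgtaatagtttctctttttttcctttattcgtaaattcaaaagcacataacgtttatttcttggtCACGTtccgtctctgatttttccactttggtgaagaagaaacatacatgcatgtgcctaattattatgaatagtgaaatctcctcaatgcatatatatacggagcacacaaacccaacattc
AT3G24130: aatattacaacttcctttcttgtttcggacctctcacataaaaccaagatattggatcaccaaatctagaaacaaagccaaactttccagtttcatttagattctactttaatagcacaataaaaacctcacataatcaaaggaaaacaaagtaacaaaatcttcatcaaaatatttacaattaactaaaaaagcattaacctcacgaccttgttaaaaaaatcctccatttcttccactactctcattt
GER3: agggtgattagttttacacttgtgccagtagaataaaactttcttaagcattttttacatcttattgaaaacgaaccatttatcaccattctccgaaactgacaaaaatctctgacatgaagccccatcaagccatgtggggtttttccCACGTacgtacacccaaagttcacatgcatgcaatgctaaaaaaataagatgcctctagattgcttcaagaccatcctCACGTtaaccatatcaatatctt

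The core was found 36 and 35 bases before the start of AT3G02480, in 1 G-box, and again at 77 bases. LEA4-5 had 4 matches and OLEO1 had 5, PDR12 had 1, at 122 bases, and AT3G24130 had none. M17 and OLEO2, each past the rule in both genotypes, had none as well. GER3, a gene lower with ABA, had 2. A core match was thus present in genes of either direction and absent from some of the highest.

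Over all promoters available the core was matched in 78 of 230 higher members (33.9%) and 52 of 164 lower members (31.7%), against 23.4% of 21958 promoters. Among the 15 highest genes 11 had it, and 7 had a G-box. Split by wild type, 32 of 52 promoters (61.5%) of genes higher in both genotypes had the core, against 46 of 178 (25.8%) of those not past the rule in wild type. For lower members the counts were 35 of 86 (40.7%) and 17 of 78 (21.8%). The G-box CACGTG was matched in 36.5% of the 52 and 7.3% of the 178, against 6.93% of all promoters. The RY motif CATGCA, known from seed gene promoters, was matched in 15.2% of higher and 7.93% of lower members, against 8.3% of all. The I-box GATAAG (10.4%, 13.4% and 12.3%), the telo-box AAACCCTA (3.04%, 1.22% and 4.31%) and the evening element AAAATATCT (1.3%, 3.05% and 2.39%) are given in the same order. All motifs were searched on both strands. A match is a run of letters and not a shown binding site.

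**Figure D5:**
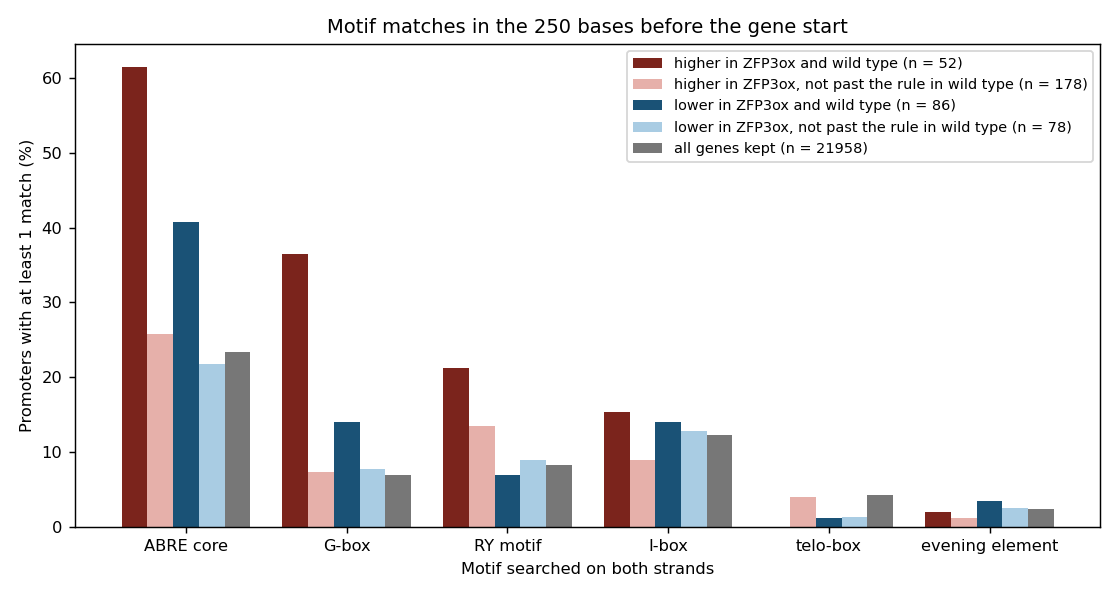
Percentage of promoters (250 bases before the gene start) with at least 1 match to each motif on either strand, for members grouped by direction and by whether they also passed the rule in wild type, with all genes kept in grey. The ABRE core is matched in 61.5% of the 52 genes higher in both genotypes and in 23.4% of all promoters.

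Members lay on all 5 chromosomes. Chromosome 1 held 27.8% of higher members, 30.3% of lower members and 26.3% of all genes kept, and chromosome 5 held 21.7% of higher members, 28 of the 165 lower members and 23.2% of all genes kept. Of higher members 19.6% had a single exon, against 15.6% of all, while 24 of the 165 lower members did. Only 4 pairs of higher members and 3 of lower members were next to each other among the genes kept, such as RBCS3B and RBCS2B. In the authors' deposited table of 803 genes higher with ABA, 62 of the higher members were listed. The authors' deposited table of 543 genes lower with ABA listed 100 of the lower members. The features deposited numbered 23932. In the first table wild-type folds start at 2.0, while ZFP3ox folds run from -2.96 to 41.69. In the second wild-type folds end at -1.98, while ZFP3ox folds run from -10.86 to 5.25. Both tables are thus bounded by the wild-type fold and not by that of ZFP3ox. The authors' deposited table gives RAB18 a signed fold of 13.8 in ZFP3ox and 48.7 in wild type. The authors' deposited table gives KIN1 26.5 in ZFP3ox and 10.5 in wild type. Of the 12 among the 15 highest genes that the authors' deposited table lists, KIN1, M17 and OLEO2 have the larger fold in ZFP3ox and the others in wild type. That bound tilts this tally to wild type. The unlisted PDR12, AT3G24130 and AT4G17180 had mean log2 ratios of 2.81, 2.83 and 2.55 in ZFP3ox. In wild type these were 0.96, -0.56 and 0.76. For OLEO2 the mean log2 ratio was 4.24 in ZFP3ox and 4.85 in wild type, unlike the order of its deposited folds.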

How the data were processed

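RNA of seedlings was depleted of ribosomal RNA and sequenced on a SOLiD instrument as reads of 50 bases, per the labels' protocols. The authors deposited a table of 23932 features with 2 columns per sample. The authors' settings record a match by strand in colour space, at most 2 mismatches, use of reads with up to 10 matches, and RPKM per gene as the value. Aligner and build were not given in the sources used here. The deposited values of column set 1 are RPKM. The RPM values of column set 2 were deposited by the authors under like headers, with no record of why they lack a length term: in each column 100% of the values checked lay within 0.0055 of a whole multiple of 1 step, the same for genes of every length, which gives 2.53 to 3.46 M reads in features (M, 1000000 reads). The median RPM in ZFP3ox ABA was 0.60 for exon lengths up to 500 bases and 9.58 above 3000, where RPKM of set 1 was 11.4 and 17.1. Set 1 was therefore read as RPKM and set 2 as RPM, although RPKM had been assumed for both. The deposited tables of selected genes hold a signed fold, a score of the authors' own.

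Values are log2(value + 1), so ratios of weak genes are understated. Ratios were taken within a set, and 57 features had no locus code. The 95% interval of a set 2 ratio is the exact (Clopper-Pearson) interval of 2 read counts. With 1 sample per group the size rule involves no test. Genes named are the 15 highest and 15 lowest by the weaker ratio, RAB18, KIN1, ZFP3, members of 25 lists that passed first, and genes next to the limit; others are said to be chosen later. The members and lists were chosen with earlier results of these data known. Where a count test was tried, edgeR 4.0.16 in R 4.3.3 used the recovered reads of set 2 in all 4 samples, with ABA and genotype as terms and 1 residual degree of freedom. Promoters and gene positions are those of TAIR10.1. Work was done in Python with numpy, pandas and scipy.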

Additional observations from a re-analysis of the deposited data

Results flagged for a closer look

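Of the 230 higher members, 12 had wild-type ratios below 0 in both column sets. AT3G24130, the pectin lyase-like gene among the 15 highest in ZFP3ox, was among them, at -0.04 and -1.08, the first close to no change. It had 112 RPKM and 10.4 RPM in ZFP3ox ABA, against 9.32 RPKM and 1.47 RPM in ZFP3ox control, while wild type had 7.30 RPKM and 4.14 RPM with ABA and 7.53 RPKM and 9.87 RPM without. Its mean log2 ratio was 2.83 in ZFP3ox and -0.56 in wild type, a difference of 3.39 that was not tested, since each group is 1 sample. In set 2 this rested on 103 reads against 14 in ZFP3ox and on 45 against 139 in wild type.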

How the results depend on the processing

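No paired analysis was possible because each group is 1 sample, and no sample could be left out for the same reason. All 30 ranked genes stayed past the rule under each of the 10 alternatives on the deposited values. Their choice by the largest weaker ratio nearly fixes this, so it is no check on them. The counts moved more. Higher and lower genes numbered 579 and 216 with no pseudocount and 62 and 93 with a pseudocount of 5. They were 116 and 313 with median-of-ratios scaling and 111 and 303 with centred ratios, a scaling that lowers every log2 ratio by 0.21 in set 1 and 0.18 in set 2. Set 1 alone gave 1775 and 1235, set 2 alone 1812 and 547, and the mean of both sets 1010 and 504. Without a filter they stayed at 230 and 165, and a minimum of 5 gave 166 and 155. Dividing set 2 by exon length, chosen after seeing the data, gave 220 and 157. These included 191 of the 230 higher members and 154 of the 165 lower ones. Also chosen then, edgeR's quasi-likelihood test on the set 2 reads (1 residual degree of freedom, ABA averaged over both genotypes, adjusted p under 0.05) called 38 higher and 40 lower genes of 22057, with 1968 at an unadjusted p under 0.05. Of the list medians, that of the heat shock genes turned to -0.12 without a filter and -0.062 with a minimum of 5. That of the ZFP subfamily turned to -0.45 with that minimum, which equals the mean log2 ratio of ZFP3, the driven gene. In all, 8 of the 25 list medians (mean of both sets) took the other sign under at least 1 alternative. With centred ratios, gibberellin genes turned from 0.11 to -0.087 and cell division genes from 0.097 to -0.10. In set 2 alone, oil mobilisation turned from -0.06 to 0.83, root hair genes from -0.18 to 0.059 and phenylpropanoid genes from 0.22 to -0.12, and in set 1 alone light and dormancy genes from -0.027 to 0.24. No named gene past the rule turned, which the same choice nearly fixes. The causes were not tested, apart from the fewer genes that a filter leaves.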

Other observations

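Genes that the authors' deposited annotation places under pectinesterase activity were described after their values were seen. Whether each one encodes an active enzyme was not checked. Of 106 kept, 5 were higher with ABA in ZFP3ox and 1 lower, while wild type had 0 higher and 4 lower. The shares of the 22057 genes kept were 1.04% higher and 0.748% lower in ZFP3ox, and 1.44% higher and 1.41% lower in wild type. Beside AT3G24130, the higher ones were AT3G17230 (1.32 and 2.1), AT1G11593 (1.31 and 1.39), AT2G47340 (1.33 and 1.15) and AT3G43270 (1.02 and 1.20). Their wild-type ratios were 0.91 and -0.64, 1.43 and -0.20, 0.55 and 0.20, and 0.48 and 0.01. With the sets centred on the medians of all genes, AT2G47340 and AT3G43270 would fall short of the rule. The term's medians in ZFP3ox were 0.40 and 0.27, against 0.21 and 0.18 for all genes, and in wild type they were 0.42 and -0.14. Of 248 apoplast genes 25 were lower and 3 higher in ZFP3ox, and 38 were lower and 4 higher in wild type.

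Of the lower members, 2 had ratios above 0 in both wild-type sets, as seen after the values were known. THO5, of an mRNA export complex, had 131 RPKM and 32.8 RPM in ZFP3ox ABA, against 335 RPKM and 107 RPM in ZFP3ox control, while wild type had 57.2 RPKM and 120 RPM with ABA and 31.6 RPKM and 77.3 RPM without. AT5G07360 had 11.4 RPKM and 8.37 RPM in ZFP3ox ABA, against 29.0 RPKM and 35.7 RPM in ZFP3ox control.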
